A study of Danio rerio with 12 samples.

Results

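In eyes of zebrafish, the difference between mmachc mutants and their heterozygous controls was compared between 7 and 28 days post fertilization (dpf), to ask which transcripts changed their genotype difference as the eye grew. The measure was the interaction, the mutant minus heterozygous difference at 28 dpf minus the same difference at 7 dpf. It used 12 of the 12 arrays, and 14002 of 19260 named genes on the array were bright enough to be tested. The genes left out were too dim on the arrays.

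Each array held total RNA of 1 pool of whole eyes. The 4 groups of 3 pools were mmachc_Het eyes at 7 dpf, mmachc_mutant eyes at 7 dpf, and the same 2 genotypes at 28 dpf. Heterozygous fish, which carry 1 mutant copy of mmachc, were the controls at both ages, so wild-type eyes were not part of the comparison. The kind of mutation, the number of fish in a pool, and whether pools came from separate clutches are not given in the sources used here. The p-values therefore measure the spread between these pools, which may be technical. In a whole eye, fewer cells of a type and less RNA per cell cannot be told apart.

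The mmachc product prepares cobalamin (vitamin B12) for use by methionine synthase, which remakes methionine from homocysteine, and by methylmalonyl-CoA mutase, which ends propionate breakdown. Loss of the human gene causes cblC disease, in which retinal degeneration is common. The zebrafish eye has a functional, cone-driven retina by the younger age and then grows through larval life, adding rods, later opsins and lens fibres, so the age comparison spans the change from larval to juvenile expression.

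Values are log2 intensities, so a difference of 1 is a 2-fold change, and levels of different genes cannot be compared with each other. A difference was called where limma's adjusted p lay under 0.05. Genes with a called interaction were sorted by their calls at each age. A gene reversed if it was called at both ages with opposite signs, opened if it was called at 28 dpf alone, and closed if it was called at 7 dpf alone. It widened or narrowed if it was called at both ages on the same side. The classes come from the same contrasts as the calls and are a description. P-values were adjusted separately at each age, and more genes were called at 28 dpf, so the adjustment was less strict there. This favours opening over closing and reversing. At 7 dpf znf395a, with -0.198 and a standard error of 0.065, was not called (adjusted p = 0.0557). At 28 dpf slc1a6, with 0.248 and a standard error of 0.103, was called (adjusted p = 0.0477). Genes named for a class were the largest interactions among those whose genotypes did not overlap at each age with a call. Their separation at those ages therefore follows from the rule.

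The interaction was called for 47.2% of the genes tested, 2530 upward (18.1%) and 4080 downward (29.1%), of which 453 (3.24%) were at least 2-fold. The genotypes differed in 12.4% of genes at 7 dpf, 4.05% higher and 8.4% lower in mutant eyes, and in 60.8% at 28 dpf, 21.8% higher and 39% lower. Every array of one genotype lay above every array of the other in 30.4% of genes at 7 dpf and in 64.4% at 28 dpf. With or without a call, the genotypes were apart at both ages on opposite sides in 8.75% of genes and on the same side in 11.1%. Opening was the most frequent class (37.5%), with 1614 genes that opened to higher (11.5%) and 3636 that opened to lower levels in mutant eyes (26%). Reversal from lower to higher was seen in 386 genes (2.76%) and from higher to lower in 79 (0.564%). Leaving out replicate 1, 2 or 3 of the heterozygous or replicate 2 of the mutant eyes at 7 dpf moved the latter count to 43, 41, 46 and 49. Closing made up 2.88%, from a higher level in 117 (0.836%) and from a lower level in 286 genes (2.04%). A further 133 widened (0.95%; 0.393% higher and 0.557% lower in mutant eyes), 54 narrowed (0.386%) and 305 (2.18%) were called at neither age. The number that widened was 58, 67 and 87 without heterozygous replicate 1, 2 or 3 at 7 dpf, and 79 and 71 without mutant replicate 2 or 3 at 7 dpf. At the threshold the interactions of slc1a6 (0.37) and onecut3b (0.34) lay just inside and those of nr2e3 (0.40) and sprb (0.42) just outside, with adjusted p from 0.0497 to 0.0501. The median interaction over all genes was -0.07, with a median standard error of 0.11. Subtracting the median of the named probe sets from each array (centring) moved that median from -0.065 to 0.104, so directions below are relative to this shift: rises made up 38.3% of the calls as deposited, 64.7% after centring and 48.2% after quantile normalization.

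**Figure D1:**
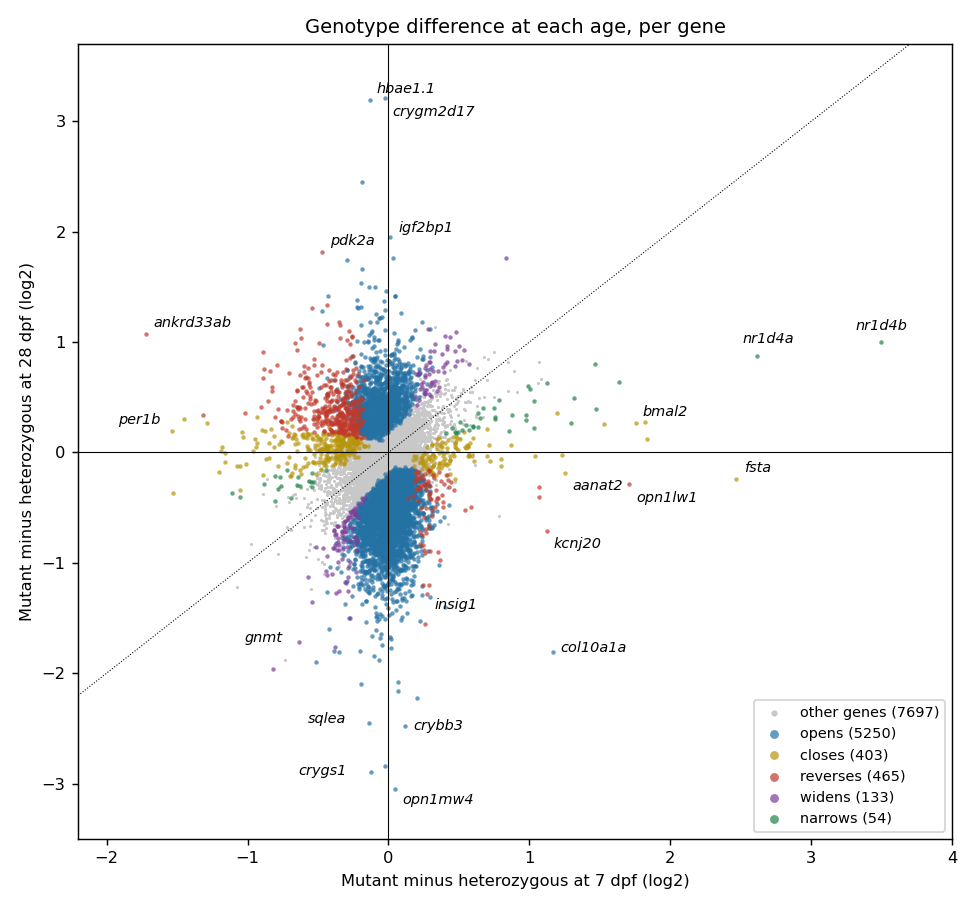
Mutant minus heterozygous difference (log2) at 7 dpf on the horizontal axis and at 28 dpf on the vertical axis, 1 point per gene (14002 genes), coloured by class. The dotted line marks equal differences at both ages: the 5250 opening genes lie along the vertical axis, and the 465 reversing genes lie in the upper left and lower right corners.

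Genes that reversed from lower to higher were led by ankrd33ab, an ankyrin repeat gene whose mouse counterpart is expressed in photoreceptors. Its levels were 9.16, 9.20 and 9.36 in heterozygous against 7.63, 7.33 and 7.60 in mutant pools at 7 dpf, then 8.16, 8.01 and 7.01 against 9.19, 8.43 and 8.79 at 28 dpf. Mutant pools lay below all heterozygous pools at 7 dpf and above all of them at 28 dpf, and the interaction was 2.80 ± 0.32, adjusted p = 5.4e-06. The heterozygous level fell by 1.51 with age while the mutant level rose by 1.28.

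The pyruvate dehydrogenase kinases Pdk2 and Pdk4 restrain the entry of pyruvate into the mitochondrial citric acid cycle. Transcript levels of pdk2a were 8.87, 8.79 and 9.12 in heterozygous against 8.57, 8.52 and 8.28 in mutant pools at 7 dpf, then 7.62, 7.63 and 8.03 against 9.70, 9.43 and 9.59 at 28 dpf. Those of its paralog pdk2b were 6.82, 6.94 and 7.06 in heterozygous against 6.29, 6.5 and 6.41 in mutant pools at 7 dpf, then 6.11, 6.54 and 6.51 against 7.62, 7.70 and 7.75 at 28 dpf. In both genes the genotypes did not overlap at either age and changed places, with interactions of 2.28 ± 0.16, adjusted p = 8.6e-08 and 1.84 ± 0.15, adjusted p = 3.9e-07. The other probe set of pdk2a gave an interaction of 2.14, close to the 2.28 of the brighter one. Of 6 kinases and phosphatases of this complex tested, 3 were called upward and 0 downward, the other one being pdk4, which opened (1.26). That was 50%, close to the 47.2% of all genes (18.1% upward and 29.1% downward). At 7 dpf pdk4 differed by -0.08, and at 28 dpf by 1.18.

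Other genes named among the reversals to higher were rdh20 of the retinol dehydrogenase family (1.80), serp2 (1.77), itm2cb (1.66), cnnm1 (1.65), fam210b (1.60), the clock repressor bhlhe41 (1.59) and gsg1l (1.58), with standard errors of 0.10 to 0.18. The brightest probe set of serp2 was used, and its dimmer probe set gave 0.25. The level of rdh20 in heterozygous eyes at 28 dpf lay below the 33rd percentile of the arrays, so the size of its change is not exact. These 10 genes reversed in the same way after centring and after quantile normalization.

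The red cone opsin gene opn1lw1, which in zebrafish comes on later than its neighbour opn1lw2, led the genes that reversed from higher to lower. Its levels were 7.56, 7.74 and 7.42 in heterozygous against 9.33, 9.26 and 9.26 in mutant pools at 7 dpf, then 11.36, 11.29 and 11.28 against 11.04, 10.97 and 11.06 at 28 dpf. Mutant pools were above all heterozygous pools at 7 dpf and slightly below all of them at 28 dpf (1.71 and -0.29), with an interaction of -2.0 ± 0.10, adjusted p = 2.8e-09. Both genotypes rose with age, heterozygous eyes by 3.74 and mutant eyes by 1.74. After centring the 28 dpf difference was not called, and the gene closed instead.

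The potassium channel gene kcnj20 was the next, at 6.13, 6.25 and 6.48 in heterozygous against 7.60, 7.36 and 7.26 in mutant pools at 7 dpf, then 6.75, 7.12 and 7.68 against 6.5, 6.36 and 6.55 at 28 dpf. Its pools did not overlap at either age, and the spread was largest in heterozygous eyes at 28 dpf (interaction -1.84 ± 0.24, adjusted p = 1.9e-05). A sterol sensor of the endoplasmic reticulum, insig1, measured 8.75, 8.84 and 8.86 in heterozygous against 9.11, 9.07 and 9.10 in mutant pools at 7 dpf, then 9.45, 9.50 and 9.34 against 8.09, 8.07 and 8.28 at 28 dpf. It was slightly higher in mutant eyes at 7 dpf and lower at 28 dpf (interaction -1.56 ± 0.10, adjusted p = 3.4e-08); its dimmer probe set, at a mean level of 5.11, gave 0.11. The remaining reversals to lower named by the rule were them4 (-1.82), hip1rb (-1.49), arhgef10lb (-1.47), lrrc61 (-1.44), fyco1b (-1.38), the extracellular matrix gene coch (-1.34; 0.07 by its dimmer probe set) and pign (-1.25). After centring fyco1b closed, while the others kept the class.

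**Figure D2:**
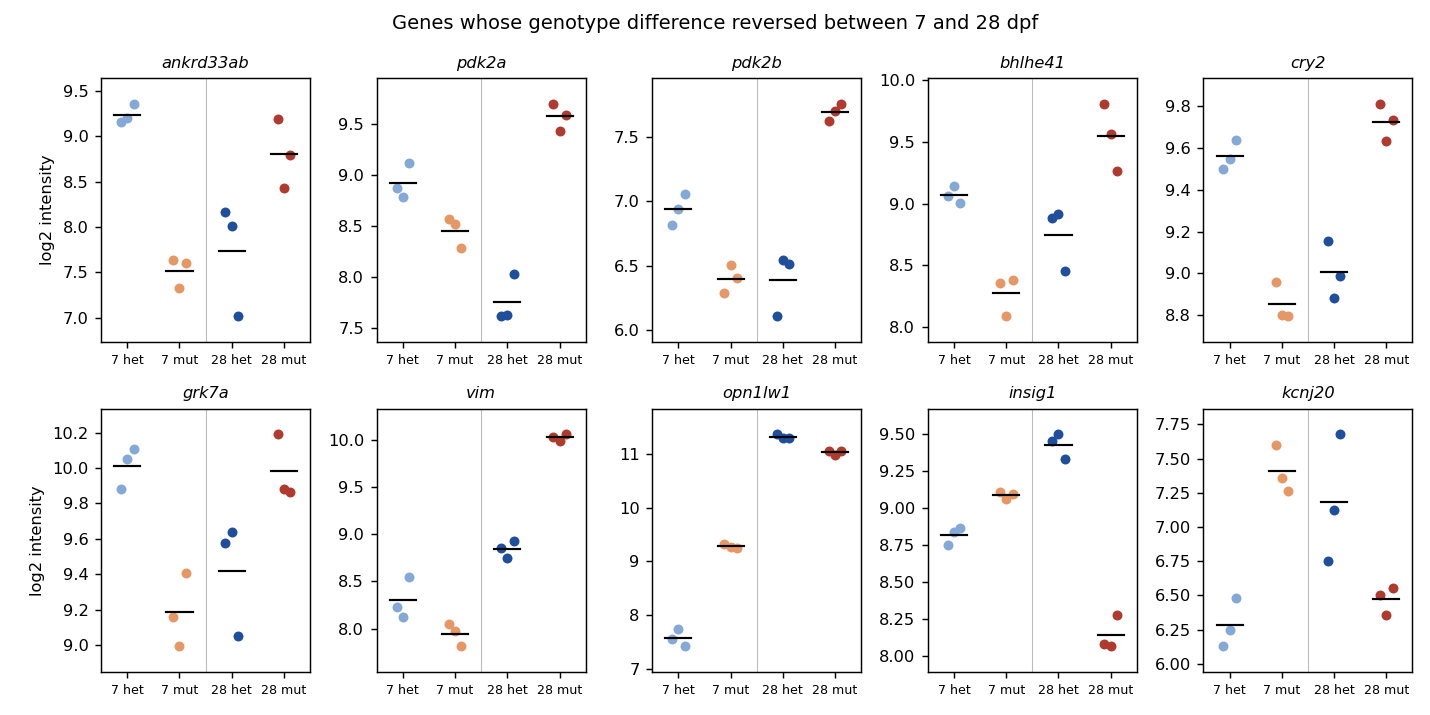
Log2 intensity of 10 genes that reversed, 1 point per pool (3 pools per group, in order of replicate number) with the group mean as a bar; 7 het, 7 mut, 28 het and 28 mut are heterozygous and mutant eyes at 7 and 28 dpf, and each panel has its own vertical scale. In each panel the mutant pools lie on one side of the heterozygous pools at 7 dpf and on the other side at 28 dpf.

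By count the circadian clock list held the most reversals: 10 of 46 members tested reversed to higher (2.76% of all genes did) and 0 to lower. Smaller lists held larger shares, with 2 of 6 kinase and phosphatase genes of the pyruvate dehydrogenase complex and 2 of 8 thyroid axis genes reversing to higher. In the vertebrate clock the Bmal and Clock activators drive period and cryptochrome repressors, and Rev-erb repressors and ROR activators feed back on the activators. In the interaction 24 members rose and 7 fell, 27 and 6 after centring, and the median was 0.38 against -0.07 over all genes. The share called was 67.4%, against 47.2% of all genes (18.1% upward and 29.1% downward). At 7 dpf 8 members were higher and 17 lower in mutant eyes, and at 28 dpf 27 were higher and 1 lower. Among all genes 4.05% were higher and 8.4% lower at 7 dpf, and 21.8% higher and 39% lower at 28 dpf. By role, of 14 output and feedback factors 11 were called upward and 0 downward, of 4 ROR receptor genes 3 upward and 0 downward, and of 3 period genes 3 upward and 0 downward. Of 6 activators 1 was called upward and 3 downward, and of 5 Rev-erb genes 0 upward and 2 downward.

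Among the output factors, dbpb measured 8.76, 8.52 and 8.67 in heterozygous against 8.47, 8.46 and 8.46 in mutant pools at 7 dpf, then 7.91, 7.58 and 7.23 against 9.39, 9.21 and 9.11 at 28 dpf. It opened: the difference of -0.19 at 7 dpf was not called (adjusted p = 0.378), although the pools did not overlap, and at 28 dpf it was 1.66. The transcription factor gene tefb reversed, at 8.53, 8.38 and 8.69 in heterozygous against 7.93, 7.99 and 7.88 in mutant pools at 7 dpf, then 7.87, 7.62 and 7.54 against 8.52, 8.27 and 8.26 at 28 dpf, with an interaction of 1.27 ± 0.14, adjusted p = 3.9e-06. The repressor bhlhe41 measured 9.06, 9.14 and 9.01 in heterozygous against 8.36, 8.09 and 8.38 in mutant pools at 7 dpf, then 8.88, 8.91 and 8.45 against 9.80, 9.56 and 9.27 at 28 dpf, and in both of these genes mutant pools lay below heterozygous pools at 7 dpf and above them at 28 dpf. The cryptochrome gene cry2 did the same, at 9.50, 9.55 and 9.64 in heterozygous against 8.96, 8.80 and 8.80 in mutant pools at 7 dpf, then 9.15, 8.88 and 8.99 against 9.81, 9.63 and 9.73 at 28 dpf (interaction 1.43 ± 0.10, adjusted p = 1.3e-07).

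The Rev-erb genes nr1d4b and nr1d4a narrowed. Levels of nr1d4b were 7.35, 7.20 and 7.46 in heterozygous against 10.80, 10.98 and 10.70 in mutant pools at 7 dpf, then 6.54, 6.74 and 6.73 against 7.35, 7.63 and 8.02 at 28 dpf, so a difference of 3.49 at 7 dpf became one of 1.0 at 28 dpf (interaction -2.49 ± 0.18, adjusted p = 1.2e-07). Those of nr1d4a were 7.67, 7.67 and 7.75 in heterozygous against 10.27, 10.41 and 10.24 in mutant pools at 7 dpf, then 6.76, 6.89 and 7.09 against 7.49, 7.82 and 8.06 at 28 dpf (interaction -1.74 ± 0.16, adjusted p = 8.1e-07). In neither gene did the genotypes overlap at either age, and the mutant level of nr1d4b fell by 3.16 with age while that of nr1d4a fell by 2.52.

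Several clock genes closed. The activator gene bmal2 measured 7.66, 7.85 and 8.05 in heterozygous against 9.68, 9.52 and 9.62 in mutant pools at 7 dpf, then 7.39, 7.39 and 7.88 against 7.39, 8.11 and 7.96 at 28 dpf. Mutant pools were far above heterozygous pools at 7 dpf, while at 28 dpf the groups overlapped and differed by 0.27 (interaction -1.48 ± 0.23, adjusted p = 7.3e-05). By replicate number each mutant pool of bmal2 was still the higher at 28 dpf, replicate 1 only barely (7.395 against 7.387). The period gene per1b measured 8.32, 8.38 and 8.32 in heterozygous against 6.97, 6.59 and 6.85 in mutant pools at 7 dpf, then 7.57, 7.45 and 6.34 against 7.86, 7.09 and 6.99 at 28 dpf, with overlapping groups at 28 dpf (interaction 1.73 ± 0.36, adjusted p = 0.001). For per3 the levels were 10.28, 10.27 and 10.21 in heterozygous against 9.13, 8.95 and 9.11 in mutant pools at 7 dpf, then 10.24, 10.16 and 9.69 against 10.32, 9.98 and 9.83 at 28 dpf, and the difference went from -1.19 to 0.01. The F-box gene fbxl3l (interaction -1.27) closed from higher and the photolyase family gene cry-dash (1.22) from lower. After centring and after quantile normalization bmal2 narrowed instead of closing, and cry-dash reversed after centring.

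The pools of clock genes were more spread at 28 than at 7 dpf: the median SD at 28 dpf was 0.16 in heterozygous and 0.14 in mutant pools, against 0.05 and 0.08 at 7 dpf, and 0.08 and 0.09 over all genes at 28 dpf. At 28 dpf the levels of dbpb, per1b and per3 fell from replicate 1 to 3 in both genotypes, and those of nr1d4a rose. Those of cry2 and bhlhe41 did not run evenly. The spread of some clock genes thus ran with replicate number, which the main fit did not pair. Collection times are not given in the sources used here. In a fit with a separate spread at each age, added after the data were seen, 32 clock genes were called in the interaction against 31 with a shared spread.

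Of 34 cone genes tested 13 were called upward and 8 downward in the interaction, 21 and 4 after centring, with a median of 0.12. In all 61.8% were called, against 47.2% of all genes (18.1% upward and 29.1% downward). In the shut-off and calcium control group 8 of 16 were called upward and 5 downward, and of 11 transduction genes 4 upward and 1 downward. The cone opsin kinase gene grk7a measured 9.88, 10.05 and 10.11 in heterozygous against 9.16, 8.99 and 9.41 in mutant pools at 7 dpf, then 9.58, 9.64 and 9.05 against 10.19, 9.88 and 9.87 at 28 dpf. The recoverin gene rcvrn3 measured 11.22, 11.24 and 11.16 in heterozygous against 10.63, 10.37 and 10.67 in mutant pools at 7 dpf, then 9.74, 9.88 and 9.40 against 10.42, 10.15 and 10.14 at 28 dpf. In both, mutant pools were lower at 7 dpf and higher at 28 dpf with no overlap at either age (interactions 1.39 ± 0.19, adjusted p = 3.3e-05 and 1.21 ± 0.15, adjusted p = 1.1e-05).

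The photoreceptor guanylate cyclase gene gucy2f went the other way, at 8.25, 8.26 and 8.29 in heterozygous against 8.42, 8.54 and 8.50 in mutant pools at 7 dpf, then 9.65, 9.70 and 9.79 against 9.14, 8.88 and 8.96 at 28 dpf (interaction -0.95 ± 0.10, adjusted p = 2.0e-06). The cyclase activator genes fell into 4 classes. From lower levels in mutant eyes at 7 dpf, guca1d closed (-1.01 at 7 and -0.11 at 28 dpf) and guca1c narrowed (-1.11 and -0.36). In contrast guca1g opened to higher (1.02 at 28 dpf) and guca1b to lower (-0.69). The cone channel gene cngb3.2 opened to higher, with an interaction of 0.78 ± 0.09, adjusted p = 6.3e-06.

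Among 7 opsin genes of cones 1 was called upward and 2 downward (4 and 2 after centring), the latter being opn1lw1 and the late green opsin gene opn1mw4. The share called was 42.9%, against 47.2% of all genes. Levels of opn1mw4 were 5.04, 4.62 and 5.16 in heterozygous against 4.82, 4.93 and 5.20 in mutant pools at 7 dpf, then 11.39, 11.38 and 11.21 against 7.91, 8.36 and 8.56 at 28 dpf. The genotypes overlapped at 7 dpf, below the 33rd percentile of the arrays, and at 28 dpf every mutant pool lay below every heterozygous pool (-3.05; interaction -3.10 ± 0.22, adjusted p = 8.6e-08). The level rose by 6.39 with age in heterozygous and by 3.29 in mutant eyes, sizes that are inexact because the starting level was dim. Close paralogs of opsins, crystallins and haemoglobins can be read by the same probes, which makes the value of any 1 member uncertain.

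Of 22 rod genes 4 were called upward and 8 downward (9 and 5 after centring). In all 54.5% were called, against 47.2% of all genes. The median of the list, -0.09, changed sign to 0.07 after centring. In the opsin and transduction group 0 of 12 were called upward and 7 downward. The phosphodiesterase subunit gene pde6b measured 9.22, 9.19 and 9.27 in heterozygous against 9.26, 9.26 and 9.09 in mutant pools at 7 dpf, then 10.70, 10.68 and 10.70 against 10.11, 9.80 and 10.003 at 28 dpf, with overlapping genotypes at 7 dpf and lower mutant pools at 28 dpf (interaction -0.70 ± 0.10, adjusted p = 4.0e-05). The rod channel gene cnga1a opened likewise (-0.63). The retinal homeobox gene rx1 (0.83) closed from a lower level, and the transcription factor gene otx5 (0.73) opened to higher.

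In the visual cycle, which regenerates the visual chromophore, 7 of 20 genes were called upward and 1 downward (10 and 0 after centring). The share called, 40%, was below the 47.2% of all genes (18.1% upward and 29.1% downward). The photoreceptor retinol dehydrogenase gene rdh8b reversed, at 9.69, 9.64 and 9.50 in heterozygous against 9.35, 9.18 and 9.15 in mutant pools at 7 dpf, then 9.55, 9.54 and 9.29 against 10.12, 10.02 and 10.21 at 28 dpf (interaction 1.04 ± 0.11, adjusted p = 3.3e-06). The retinoid transport family gene rbp4l also reversed (0.65), while rgra (0.60) and rdh8a (0.52) closed from lower levels. Melanin genes had 5 of 12 called upward and 1 downward (50% called), and slc45a2 (0.82) and tspan36 (0.65) reversed to higher.

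Muller glia are the supporting glia of the retina. Of 31 of their genes 13 were called upward and 3 downward (median 0.19), a share of 51.6% against 47.2% of all genes. The intermediate filament gene vim measured 8.23, 8.12 and 8.55 in heterozygous against 8.05, 7.98 and 7.81 in mutant pools at 7 dpf, then 8.86, 8.74 and 8.93 against 10.03, 9.99 and 10.06 at 28 dpf. It rose with age in both genotypes, by 0.54 in heterozygous and by 2.08 in mutant eyes, and mutant pools crossed from below to above all heterozygous pools (interaction 1.54 ± 0.13, adjusted p = 4.4e-07). The GABA transporter gene slc6a13 reversed (1.21), and the glutamate transporter gene slc1a2a closed, at 10.11, 10.20 and 10.21 in heterozygous against 9.17, 9.0 and 9.20 in mutant pools at 7 dpf, then 10.48, 10.35 and 10.28 against 10.39, 10.13 and 10.22 at 28 dpf (interaction 0.92 ± 0.10, adjusted p = 5.3e-06). Of the 14 reactive and regeneration genes 3 were called upward (mycb among them, 0.86) and 1 downward, a share of 28.6%.

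Genes of inner retinal neurons were called about as often as all genes (47.2%), but each of these lists held more upward than downward calls. Over all genes 18.1% were called upward and 29.1% downward, and after centring 64.7% of the calls were upward. The share called was 41.2% for bipolar, 42.9% for amacrine, 50% for horizontal and 56.2% for retinal ganglion cell genes, and 45.2% for synapse genes. Of 17 bipolar cell genes 6 rose and 1 fell in the interaction (12 and 1 after centring). The calcium-binding protein gene cabp5b reversed, at 10.002, 10.02 and 10.09 in heterozygous against 9.21, 8.90 and 9.30 in mutant pools at 7 dpf, then 10.05, 10.11 and 10.04 against 10.49, 10.56 and 10.39 at 28 dpf (interaction 1.31 ± 0.11, adjusted p = 5.0e-07), and the On-bipolar gene nyx opened to higher (0.94). Of 12 horizontal cell genes 5 rose and 1 fell (7 and 0 after centring), with onecutl at 0.77, and of 31 synapse genes 13 rose and 1 fell (20 and 1), with the synaptotagmin gene syt5b at 0.87. Retinal ganglion cell genes rose in 6 and fell in 3 of 16 cases (9 and 1), elavl3 (0.58) and stmn2a (-0.72) among them. Amacrine cell genes rose in 4 and fell in 2 of 14 cases (8 and 1), with calb2a at 0.75.

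Among lens crystallins, the structural proteins that make the lens refract, single genes opened in both directions. No lens gene of 50 tested was called at 7 dpf (0 higher and 0 lower; 12.4% of all genes were called there), and in the interaction 11 rose and 6 fell, 24 and 6 after centring. The share called in the interaction, 34%, was below the 47.2% of all genes. Levels of crygm2d17 were 10.40, 10.83 and 10.77 in heterozygous against 10.70, 10.59 and 10.66 in mutant pools at 7 dpf, then 5.66, 6.01 and 5.98 against 9.17, 9.33 and 8.78 at 28 dpf. Those of crygs1 were 5.84, 5.93 and 5.67 in heterozygous against 5.53, 5.98 and 5.55 in mutant pools at 7 dpf, then 11.41, 11.35 and 11.82 against 8.86, 8.23 and 8.81 at 28 dpf. The former fell by 4.79 with age in heterozygous eyes and fell by 1.55 in mutant eyes, and the latter rose by 5.71 and 2.94, so in both the mutant level changed less (interactions 3.24 ± 0.18, adjusted p = 1.2e-08 and -2.77 ± 0.23, adjusted p = 3.1e-07).

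The beta crystallin gene crybb3 measured 7.14, 7.11 and 7.20 in heterozygous against 7.23, 7.30 and 7.27 in mutant pools at 7 dpf, then 11.13, 11.11 and 11.12 against 8.89, 8.48 and 8.55 at 28 dpf. Its pools did not overlap at 7 dpf, where the difference of 0.12 was not called (adjusted p = 0.434), and mutant pools did not reach the heterozygous level at 28 dpf (interaction -2.60 ± 0.12, adjusted p = 1.5e-09). The alpha crystallins cryaba (-1.60) and cryabb (-1.62) and the gamma crystallins crygm3 (-1.75) and crygm6 (-0.83) also opened to lower. The crygm2d genes crygm2d16 (2.64), crygm2d6 (1.75) and crygm2d15 (1.17) opened to higher. Dim levels make the sizes inexact for crygm2d17, crygm2d16 and crygm2d6 at 28 dpf and for crygs1, crygm3, crygm6, cryaba and cryabb at 7 dpf.

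Larval globin genes behaved like the crygm2d genes in direction. All 3 tested were called upward in the interaction, against 18.1% of all genes. Levels of hbae1.1, an embryonic and larval alpha globin, were 10.36, 10.93 and 10.34 in heterozygous against 10.50, 10.60 and 10.12 in mutant pools at 7 dpf, then 6.86, 6.65 and 6.5 against 9.55, 10.13 and 9.90 at 28 dpf. It fell by 3.87 with age in heterozygous eyes and fell by 0.55 in mutant eyes, and the genotypes were apart at 28 dpf alone (interaction 3.32 ± 0.23, adjusted p = 8.6e-08; 2.12 by its other probe set). The globin gene hbae3 measured 10.01, 10.28 and 9.84 in heterozygous against 10.04, 10.13 and 9.91 in mutant pools at 7 dpf, then 5.99, 6.31 and 6.07 against 7.07, 8.10 and 7.58 at 28 dpf, and hbbe2 opened too (1.41). The heterozygous level of hbae3 at 28 dpf was dim (33rd percentile 6.26), so the size of its change is inexact. Of 7 other red cell genes 1 was called upward and 3 downward (1 and 1 after centring). That was 57.1%, against 47.2% of all genes. The summed level of these 7 at 28 dpf was 11.08 to 11.41 in heterozygous and 10.6 to 10.8 in mutant pools (log2).

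The RNA-binding protein gene igf2bp1, a developmental regulator of mRNA stability, measured 9.88, 9.90 and 9.79 in heterozygous against 9.86, 9.91 and 9.84 in mutant pools at 7 dpf, then 7.71, 7.75 and 7.68 against 9.64, 9.79 and 9.57 at 28 dpf. Its level fell by 2.15 with age in heterozygous eyes and fell by 0.20 in mutant eyes, and the genotypes overlapped at 7 dpf alone (interaction 1.94 ± 0.09, adjusted p = 1.5e-09; -0.12 by its dimmer probe set, at a mean level of 4.68). Of 5 genes of the igf2bp and lin28 group 4 were called upward and 0 downward, igf2bp3 (1.06) the next after igf2bp1. That was 80%, against 47.2% of all genes (18.1% upward). The carnitine palmitoyltransferase gene cpt1ab, which admits fatty acids to mitochondria, measured 8.72, 8.67 and 8.73 in heterozygous against 8.71, 8.65 and 8.87 in mutant pools at 7 dpf, then 6.91, 6.55 and 6.83 against 8.42, 8.74 and 8.42 at 28 dpf (interaction 1.73 ± 0.14, adjusted p = 3.0e-07). Its paralog cpt1aa went the other way, with an interaction of -0.64 (-0.62 by its dimmer probe set) and a 28 dpf difference of -0.52. The vitamin D receptor gene vdrb measured 8.45, 8.40 and 8.69 in heterozygous against 8.40, 8.35 and 8.49 in mutant pools at 7 dpf, then 7.20, 6.87 and 7.15 against 8.65, 8.48 and 8.58 at 28 dpf (interaction 1.60 ± 0.13, adjusted p = 3.3e-07), and vdra opened as well (0.94). Of 9 vitamin D genes 3 were called upward and 0 downward (33.3%, against 47.2% of all genes).

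The polycomb gene cbx7a (2.04), znf395a (1.74) and the cytochrome P450 gene cyp2y3 (1.64) completed the openings to higher that the rule named. The dimmer probe set of cyp2y3 gave -0.14. At 7 dpf all mutant pools of cbx7a (-0.295, adjusted p = 0.118) and znf395a (-0.198, adjusted p = 0.0557) lay below the heterozygous pools. Neither difference was called, which does not show that it was absent. Of 14 p53 and apoptosis genes 8 were called upward and 1 downward (median 0.29). The share called was 64.3%, against 47.2% of all genes (18.1% upward). The pro-apoptotic p53 target gene bbc3 measured 7.03, 6.80 and 7.11 in heterozygous against 6.88, 6.95 and 6.90 in mutant pools at 7 dpf, then 6.63, 6.53 and 6.72 against 7.95, 7.66 and 7.93 at 28 dpf. Its genotypes overlapped at 7 dpf and were apart at 28 dpf (interaction 1.29 ± 0.14, adjusted p = 3.0e-06), and sesn1 followed the same course (1.09).

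Cholesterol synthesis genes opened downward. Of 20 tested 13 were called downward and 1 upward in the interaction, 13 and 2 after centring, with a median of -0.88 against -0.07 over all genes. That was 70% called, against 47.2% of all genes (18.1% upward and 29.1% downward). At 7 dpf 2 were lower in mutant eyes and 0 higher, and at 28 dpf 17 were lower and 1 higher. Among all genes 8.4% were lower at 7 dpf, and 39% were lower and 21.8% higher at 28 dpf. The enzymes from squalene to cholesterol accounted for 10 of the 13. Of 7 mevalonate enzymes 3 were called downward and 0 upward (42.9%). The squalene epoxidase gene sqlea measured 8.22, 8.03 and 8.10 in heterozygous against 8.18, 7.95 and 7.80 in mutant pools at 7 dpf, then 9.12, 9.11 and 8.85 against 6.18, 6.63 and 6.92 at 28 dpf. The level rose with age by 0.91 in heterozygous eyes and fell by 1.40 in mutant eyes (interaction -2.31 ± 0.20, adjusted p = 5.4e-07).

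For sc5d, the gene of a late desaturase of the pathway, levels were 7.86, 7.76 and 7.80 in heterozygous against 8.11, 7.91 and 7.62 in mutant pools at 7 dpf, then 9.02, 8.98 and 8.88 against 6.79, 6.81 and 7.03 at 28 dpf, with genotypes that overlapped at 7 dpf and were well apart at 28 dpf. The interactions of the lanosterol synthase gene lss and of hsd17b7 were -2.43 ± 0.16, adjusted p = 5.0e-08 and -2.23 ± 0.11, adjusted p = 4.0e-09; the mutant level of lss at 28 dpf was dim. Further along the list were msmo1 (-1.59), cyp51 (-1.36), tm7sf2 (-1.32), the farnesyl diphosphate synthase gene fdps (-1.31), hmgcs1 (-0.99) and ebp (-0.98). The sterol transfer gene STARD5 opened downward (-1.81). Of 13 sterol regulation genes 4 were called upward and 4 downward (4 and 2 after centring), 61.5% against 47.2% of all genes. The LDL receptor ligase gene mylipa reversed to higher, at 10.42, 10.35 and 10.53 in heterozygous against 9.88, 9.77 and 9.86 in mutant pools at 7 dpf, then 10.28, 10.09 and 10.19 against 11.01, 10.96 and 10.91 at 28 dpf (interaction 1.38 ± 0.09, adjusted p = 3.5e-08), and the cholesterol exporter gene abca1a opened to higher (0.95).

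Fatty acid synthesis genes took the same course, with 11 of 13 called downward and 1 upward (8 and 1 after centring; median -0.58). The share called was 92.3%, against 47.2% of all genes (29.1% downward). The desaturase gene fads2, which acts in the making of long polyunsaturated fatty acids, measured 8.21, 8.33 and 7.97 in heterozygous against 8.01, 8.06 and 7.86 in mutant pools at 7 dpf, then 9.75, 9.89 and 9.51 against 7.55, 7.62 and 7.70 at 28 dpf. It rose with age by 1.54 in heterozygous eyes and fell by 0.36 in mutant eyes (interaction -1.90 ± 0.14, adjusted p = 1.5e-07). The elongase genes elovl2 (-1.19) and elovl5 (-0.79) and the desaturase gene scd (-1.07) were also called. Fatty acid oxidation genes were called upward in 6 and downward in 2 of 15 cases (53.3%, against 47.2% of all genes). The receptor gene pparaa reversed to higher (1.38).

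Oxidative phosphorylation genes, which encode the respiratory chain, were called downward in 46 and upward in 2 of 70 cases, and after centring in 25 and 4. The median was -0.33, and -0.16 after centring. In all 68.6% of the list were called, against 47.2% of all genes (29.1% downward). The respiratory chain gene ndufa4b measured 10.82, 11.01 and 10.99 in heterozygous against 10.93, 10.77 and 10.70 in mutant pools at 7 dpf, then 11.04, 11.10 and 10.96 against 10.01, 9.59 and 9.70 at 28 dpf (interaction -1.13 ± 0.13, adjusted p = 4.9e-06). Its heterozygous level differed little between ages, by 0.09, and the mutant level fell by 1.03. Others were ndufa7 (-0.99), cox7a2a (-0.98) and ndufc2 (-0.83). Branched chain and propionate catabolism genes were called downward in 11 and upward in 0 of 21 cases (5 and 3 after centring). That was 52.4%, against 47.2% of all genes, with mccc1 at -0.71 and suclg2 at -0.66.

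Of 33 glycolysis genes 12 were called upward and 4 downward (22 and 2 after centring). The share called, 48.5%, was close to the 47.2% of all genes (18.1% upward and 29.1% downward). After centring 64.7% of the calls over all genes were upward. Of the glycolysis genes 9 closed from lower levels, a class that held 2.04% of all genes. The glucose transporter gene slc2a1a measured 10.76, 11.06 and 10.84 in heterozygous against 10.09, 9.90 and 10.16 in mutant pools at 7 dpf, then 10.53, 10.58 and 10.44 against 10.63, 10.27 and 10.51 at 28 dpf (interaction 0.80 ± 0.13, adjusted p = 0.00015), and the lactate transporter genes slc16a3b (1.14) and slc16a1a (0.82) opened to higher.

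**Figure D3:**
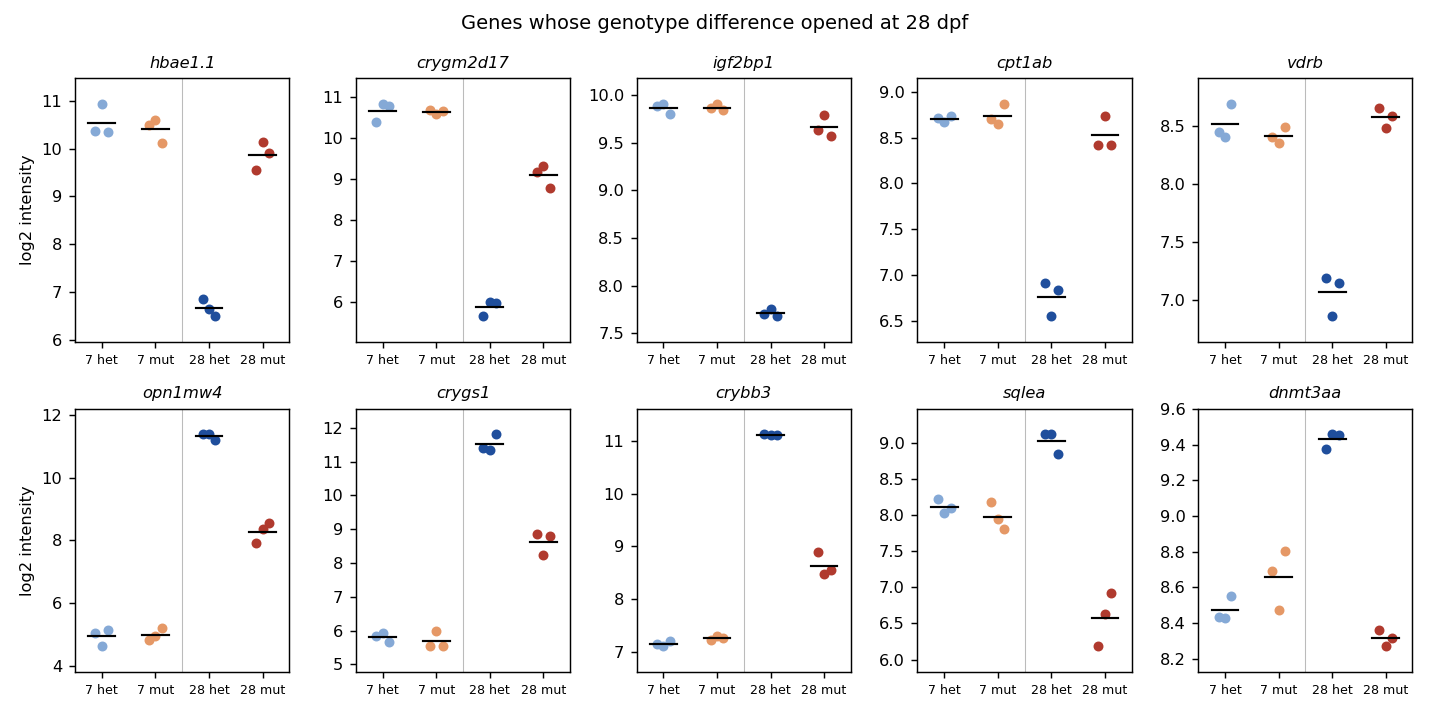
Log2 intensity of 10 genes that opened, drawn as in the plot of reversing genes with 1 point per pool, 3 pools per group and the group mean as a bar. The upper row opened to higher and the lower row to lower levels in mutant eyes, and at 28 dpf the genotypes do not overlap in any of the 10.

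Extracellular matrix genes opened downward in 30 of 47 cases, and 32 were called downward and 0 upward in all (24 and 1 after centring; median -0.49). The share called was 68.1%, against 47.2% of all genes (29.1% downward), and 26% of all genes opened to lower. The collagen gene col6a1 measured 7.17, 7.29 and 7.03 in heterozygous against 7.19, 7.19 and 7.12 in mutant pools at 7 dpf, then 8.93, 9.0 and 8.80 against 7.44, 7.37 and 7.51 at 28 dpf (interaction -1.47 ± 0.11, adjusted p = 1.6e-07). It rose with age by 1.74 in heterozygous and by 0.27 in mutant eyes. The collagen gene col6a2 (-1.68) and the proteoglycan gene ogna (-1.49) followed. The cartilage collagen gene col10a1a had -2.97 ± 0.54, with pools that spread over more than 1 log2 unit within a group, and its other probe sets gave -1.49 and -0.03. It was dim in heterozygous eyes at 7 dpf, so the size is inexact, and after centring it reversed instead of opening. Its 7 dpf difference of 1.17 was just not called (adjusted p = 0.0581). Of skeletal muscle genes, which eye dissections can carry, 8 of 24 (33.3%, against 29.1% of all genes) were called downward and 0 upward (6 and 2 after centring), and acta1b had -1.46 (0.16 by its dimmer probe set). The summed log2 level of the 24 lay between 10.7 and 11.12 in heterozygous and between 11.13 and 11.28 in mutant pools at 7 dpf. At 28 dpf it lay between 12.21 and 12.47 in heterozygous and between 11.49 and 12.29 in mutant pools. The part of muscle in the matrix values was not tested.

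Cell cycle genes were called downward in 16 and upward in 1 of 32 cases, and after centring in 12 and 2 (median -0.40 as deposited). In all 53.1% were called, against 47.2% of all genes (29.1% downward). The cyclin gene ccna2 measured 8.57, 8.46 and 8.26 in heterozygous against 8.52, 8.56 and 8.29 in mutant pools at 7 dpf, then 7.83, 7.93 and 7.81 against 6.62, 6.66 and 7.12 at 28 dpf. It fell by 0.57 with age in heterozygous eyes and fell by 1.66 in mutant eyes (interaction -1.09 ± 0.17, adjusted p = 7.6e-05), and plk1 (-0.84), cdc20 (-0.92) and cdk1 (-0.72) ran the same way. DNA methylation and polycomb genes were called downward in 15 and upward in 3 of 24 cases (12 and 3 after centring). That was 75%, against 47.2% of all genes. The de novo DNA methyltransferase gene dnmt3aa measured 8.44, 8.43 and 8.55 in heterozygous against 8.69, 8.47 and 8.80 in mutant pools at 7 dpf, then 9.38, 9.46 and 9.45 against 8.36, 8.27 and 8.32 at 28 dpf. It rose with age by 0.96 in heterozygous eyes and fell by 0.34 in mutant eyes (interaction -1.30 ± 0.11, adjusted p = 3.1e-07), and its paralog dnmt3ab (-0.99) and mbd3b (-0.97) opened to lower as well.

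In the cobalamin and methionine pathway, which holds the function of mmachc itself, 5 of 27 genes were called upward and 9 downward. That was 51.9%, against 47.2% of all genes. After centring the counts were 7 and 6, and the median turned from -0.06 to 0.10. Of 8 cobalamin uptake and processing genes 0 were called upward and 6 downward, led by hcfc1a, the counterpart of a human co-regulator of MMACHC, at 10.21, 10.12 and 10.20 in heterozygous against 10.21, 10.23 and 10.10 in mutant pools at 7 dpf, then 10.02, 10.09 and 10.10 against 9.16, 9.15 and 9.08 at 28 dpf (interaction -0.95 ± 0.08, adjusted p = 2.7e-07). The neighbour in the pathway mmadhcb widened (-0.49). Of 10 methionine and homocysteine cycle genes 4 were called upward and 1 downward.

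The S-adenosylmethionine synthetase gene mat2ab measured 9.21, 9.28 and 9.17 in heterozygous against 8.34, 8.04 and 8.16 in mutant pools at 7 dpf, then 8.54, 8.56 and 8.72 against 9.01, 8.60 and 8.76 at 28 dpf. It was lower in mutant pools at 7 dpf and overlapped at 28 dpf (interaction 1.23 ± 0.14, adjusted p = 4.1e-06), and it reversed to higher after centring and after quantile normalization. Its relative mat1a reversed, at 7.41, 7.67 and 7.36 in heterozygous against 6.98, 6.99 and 6.79 in mutant pools at 7 dpf, then 6.92, 7.18 and 7.09 against 7.49, 7.59 and 7.56 at 28 dpf (interaction 1.04 ± 0.13, adjusted p = 1.6e-05), and bhmt, which remethylates homocysteine without cobalamin, opened to higher (0.89). The glycine methyltransferase gene gnmt, which uses up S-adenosylmethionine, measured 6.98, 7.04 and 6.89 in heterozygous against 6.63, 6.31 and 6.07 in mutant pools at 7 dpf, then 7.88, 7.93 and 8.02 against 6.0, 6.57 and 6.10 at 28 dpf. It was lower in mutant eyes at both ages, and the difference widened: it rose in heterozygous eyes by 0.97, while the mutant age change of -0.11 was not called (interaction -1.08 ± 0.20, adjusted p = 0.00038). Among folate enzymes tyms (-0.65) and mthfd1l (-0.73) opened downward, the latter not with the mean over its probe sets (-0.24). The gene hspa8 is named on the same probe set as mmachc, which therefore checks nothing about the genotype. That probe set had an interaction of 0.28 ± 0.12 that was not called (adjusted p = 0.0836 over 33957 probe sets).

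Genes that closed were led by fsta, the gene of the activin antagonist follistatin. Levels of fsta were 5.84, 5.66 and 5.76 in heterozygous against 8.39, 8.21 and 8.07 in mutant pools at 7 dpf, then 6.0, 6.37 and 6.16 against 6.0, 5.88 and 5.92 at 28 dpf. Mutant pools were far higher at 7 dpf and overlapped heterozygous pools at 28 dpf (2.47 and -0.24; interaction -2.71 ± 0.15, adjusted p = 1.1e-08). All groups but mutant eyes at 7 dpf were dim. The activin subunit gene inhbb measured 8.03, 7.83 and 8.04 in heterozygous against 9.14, 9.14 and 9.31 in mutant pools at 7 dpf, then 8.28, 8.28 and 8.41 against 8.21, 8.28 and 8.41 at 28 dpf (interaction -1.25 ± 0.11, adjusted p = 5.3e-07), so it was higher in mutant eyes at 7 dpf by 1.23 and differed by -0.02 at 28 dpf. The melatonin synthesis gene aanat2 measured 8.69, 8.87 and 8.97 in heterozygous against 10.13, 10.11 and 10.04 in mutant pools at 7 dpf, then 9.34, 9.63 and 9.55 against 9.15, 9.50 and 9.29 at 28 dpf, with a difference of 1.25 at 7 dpf and of -0.19 at 28 dpf (interaction -1.44 ± 0.13, adjusted p = 6.7e-07).

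Other closings from higher were fam131aa (-1.54), ccni2 (-1.07), kif25 (-0.92), parp6b (-0.86) and lmod2b (-0.84). Closings from lower were led by the kinase gene camkk1b, at 7.92, 8.03 and 8.38 in heterozygous against 7.02, 6.46 and 6.49 in mutant pools at 7 dpf, then 7.88, 7.83 and 7.85 against 8.31, 8.11 and 8.06 at 28 dpf (interaction 1.76 ± 0.19, adjusted p = 3.5e-06). At 28 dpf its mutant pools lay above all heterozygous pools, by a mean of 0.31 that was just not called (adjusted p = 0.0583). The glutamate transporter gene slc1a8b measured 10.08, 10.30 and 10.16 in heterozygous against 9.17, 8.82 and 9.08 in mutant pools at 7 dpf, then 11.13, 11.01 and 11.23 against 11.08, 10.88 and 11.14 at 28 dpf; it rose with age in both genotypes, by 0.94 and 2.01, and the groups overlapped at 28 dpf. The prolactin receptor gene prlra (1.17), ncaldb (1.16), arg2 (1.07) and kcnj2b (1.05) were the others. A closed difference was not called at 28 dpf, which does not show that it was absent. After centring 3 of the 10 closings from higher narrowed and 7 of the 10 from lower reversed. After quantile normalization camkk1b, mat2ab and kcnj2b reversed, and fam131aa, bmal2 and lmod2b narrowed.

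**Figure D4:**
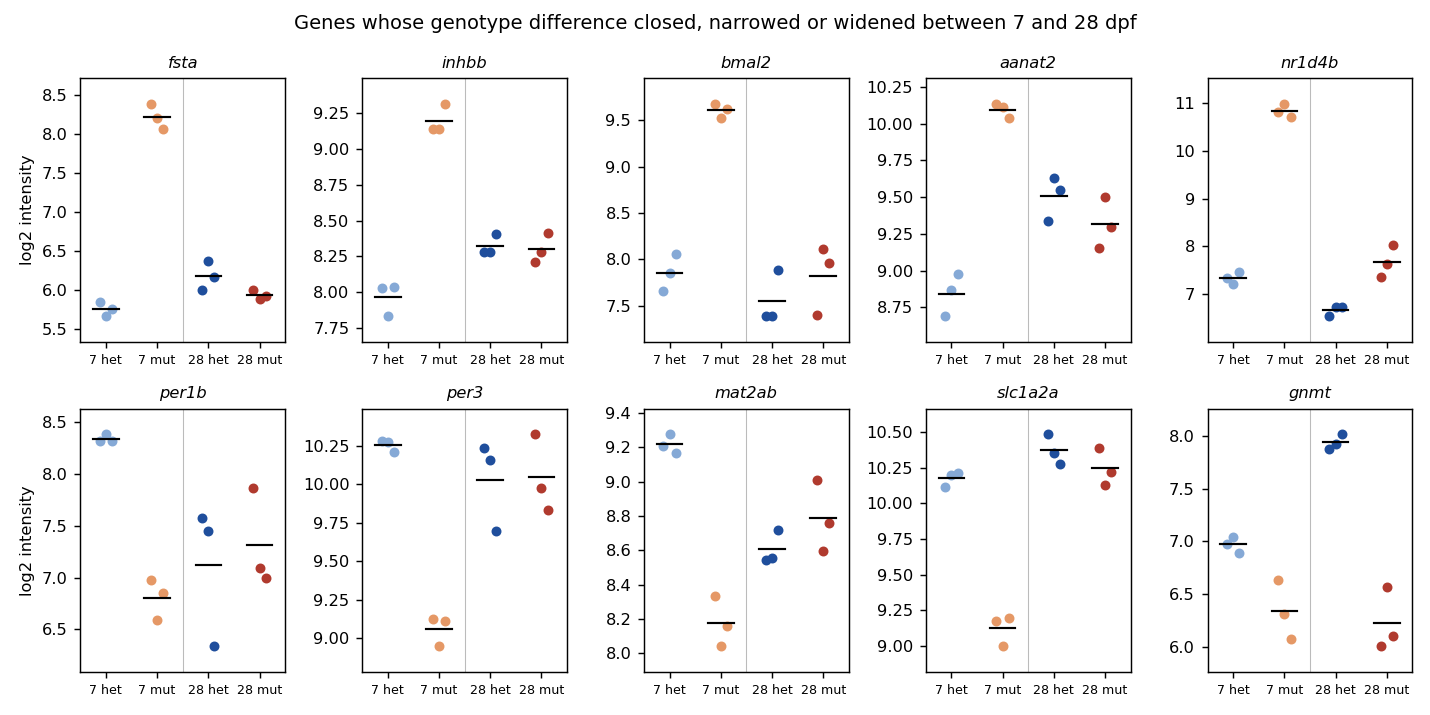
Log2 intensity of 10 genes, drawn as in the plot of reversing genes with 1 point per pool, 3 pools per group and the group mean as a bar. The genotypes are apart at 7 dpf in all 10; at 28 dpf they overlap except in nr1d4b, which narrowed, and gnmt, which widened.

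The other widening genes named by size were nyap2b (0.66), filip1l (0.65), nhsl1b (0.62), nr6a1a (0.61) and prom2 (0.61, and 0.10 by the mean of its probe sets, which was not called) to higher, and bcl7ba (-1.39), acbd6 (-1.23), the small heat shock protein gene hspb6 (-1.15) and dennd10 (-0.91) to lower. Besides the Rev-erb genes, dtx4a (-1.07), spsb3b (-0.99) and KCTD20 (-0.82) narrowed from higher. From lower ppm1na (0.65), ankha (0.55), the cone opsin kinase gene grk7b (0.42), the phototransduction regulator pdcb (0.36) and the ferrochelatase gene fech (0.36) narrowed. Of these, ppm1na, ankha, grk7b and fech closed after centring.

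Age changed the level of 43% of genes in heterozygous and of 63.9% in mutant eyes (20.9% and 26% upward, 22.1% and 37.9% downward). Since the interaction equals the difference between the age changes of the genotypes, each class was also described by which genotype moved. Of the 3636 genes that opened to lower, 2112 fell with age in mutant eyes while the heterozygous change was not called, 449 rose in heterozygous and fell in mutant eyes, and 429 rose in heterozygous eyes alone. Of the 1614 that opened to higher, 709 rose in mutant eyes alone, 403 fell in heterozygous eyes alone, and 251 fell in heterozygous and rose in mutant eyes. Among the 386 reversals to higher, 160 fell in heterozygous and rose in mutant eyes.

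At least 2-fold changes with age were called for 2.73% of genes in heterozygous and 3.85% in mutant eyes. Of 265 genes that rose at least 2-fold in heterozygous eyes, 227 were called the same way in mutant eyes, 32 were not called and 6 went the opposite way, with medians of 1.40 and 0.87. Of 117 that fell at least 2-fold, 88 were called the same way, 22 not called and 7 opposite (-1.30 and -0.67). Genes picked for their size in one genotype favour a smaller change in the other. Picked in mutant eyes, 239 rose at least 2-fold, of which 196 were called the same way in heterozygous eyes, 33 not called and 10 opposite. Of 300 that fell, 168 were called the same way, 111 not called and 21 opposite. The heterozygous medians were 0.93 against 1.22 for the rises and -0.32 against -1.13 for the falls.

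**Figure D5:**
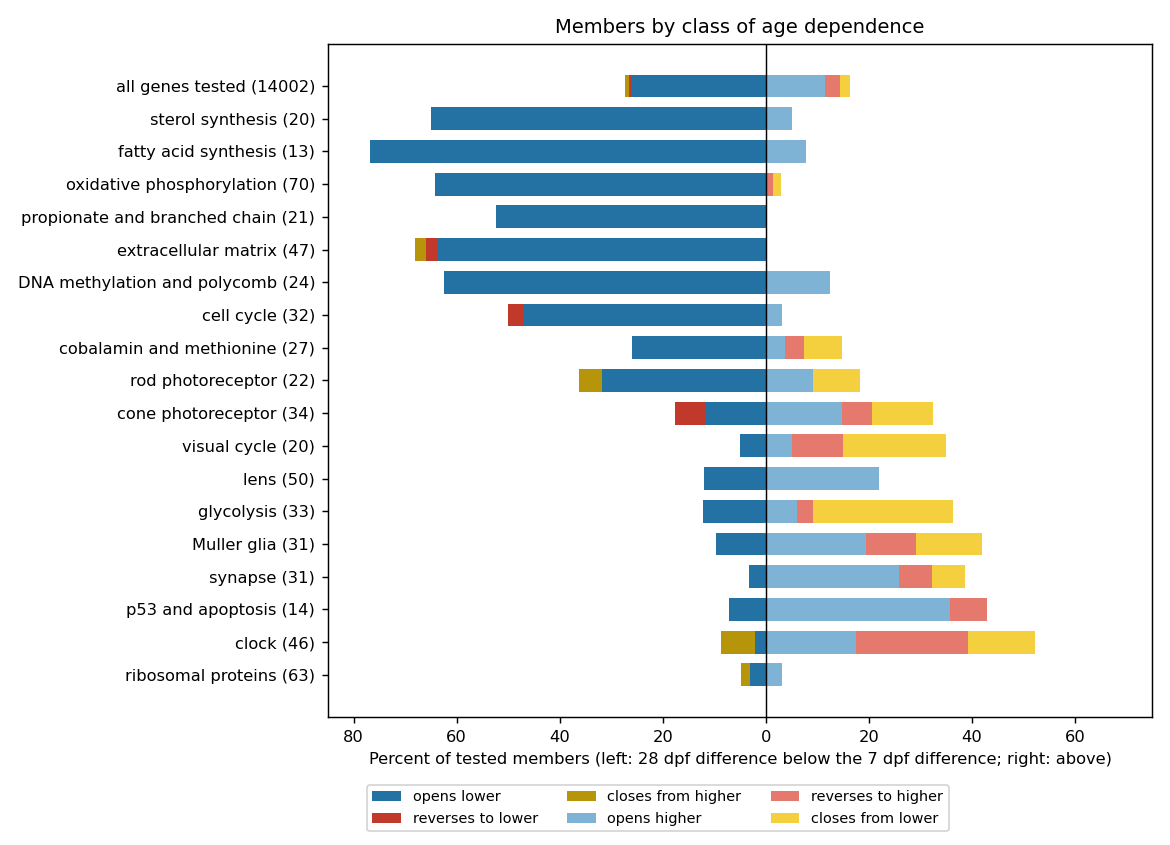
Share of tested members (percent; number tested in parentheses) of 18 gene lists and of all 14002 genes that opened, reversed or closed, with classes whose interaction is downward to the left of 0 and upward to the right. Sterol synthesis, fatty acid synthesis, oxidative phosphorylation and matrix genes extend to the left. The clock list extends to the right, with the longest bar of reversals to higher among the lists drawn.

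The other lists are given by their counts in the interaction, where 47.2% of all genes were called (18.1% upward and 29.1% downward). Ribosomal protein genes had 4 upward and 3 downward calls of 63, and 26 and 1 after centring. Their 7 calls fell to 3 or 4 without heterozygous replicate 1 at 7 dpf, heterozygous replicate 2 or 3 at 28 dpf, or mutant replicate 1 at 28 dpf. Heat shock genes had 4 and 7 of 20 (7 and 2 after centring), with hsf2 reversing (1.0). Antioxidant genes had 6 and 7 of 28 (9 and 3 after centring), interferon genes 3 and 1 of 7 and melatonin genes 1 and 2 of 5, and the medians of all 4 of these lists changed sign with centring. Stress response genes of amino acid shortage and the endoplasmic reticulum had 7 and 4 of 30 (15 and 2 after centring), with the stress hormone gene fgf21 at 1.09. Thyroid axis genes had 2 and 1 of 8, and the thyroid hormone receptor genes thraa (0.79) and thrab (0.78) reversed to higher. Growth axis genes had 4 and 7 of 21, and outer segment genes 4 and 3 of 14 (8 and 1 after centring, 3 and 3 after quantile normalization). Sizes are also inexact for cbx7a, cyp2y3, ndufa7, ndufc2, ogna, cdc20, mmadhcb, hspb6, lmod2b, cry-dash, kcnj2b, fgf21 and cd74a, each dim in 1 or more groups.

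Markers of other cells that eye samples can hold were called in both directions. The share called was 44.4% for vascular endothelium, 35% for surface epithelium, 36.4% for macrophage and microglia and 33.3% for myelin genes. Of all genes 47.2% were called. Vascular endothelium genes had 3 upward and 5 downward calls of 18 (4 and 2 after centring; 5 in all without mutant replicate 1 at 7 dpf), surface epithelium genes 5 and 2 of 20 (13 and 1 after centring), macrophage and microglia genes 2 and 2 of 11 (6 and 1 after centring), myelin genes 1 and 2 of 9 (4 and 0 after centring; 5 in all without mutant replicate 3 at 7 dpf or heterozygous replicate 3 at 28 dpf) and neutrophil genes 1 and 0 of 1. The antigen presentation gene cd74a measured 5.91, 5.92 and 6.42 in heterozygous against 5.65, 5.90 and 6.21 in mutant pools at 7 dpf, then 9.64, 9.45 and 9.18 against 8.11, 8.13 and 7.97 at 28 dpf (interaction -1.19 ± 0.21, adjusted p = 0.00028). Summed levels of the macrophage and microglia genes lay between 11.74 and 11.81 in heterozygous and between 11.69 and 11.78 in mutant eyes at 28 dpf. Those defining markers of the eye that could be matched to a named gene were detected in every group. Means were 12.55 to 12.79 for the ultraviolet opsin gene opn1sw1 and 12.18 to 12.51 for the lens membrane gene mipa. The eye marker rho and the blood markers hbaa1 and hbba1 could not be matched and have no value here. The muscle marker mylpfa averaged 6.03 against 6.33 at 7 dpf and 8.30 against 7.76 at 28 dpf (heterozygous against mutant). In the same order tnnc2.2 averaged 6.39 against 6.5 and 8.5 against 8.02. The muscle marker ckma averaged 5 against 5.6 at 7 dpf and 6.66 against 6.65 at 28 dpf. At 7 dpf mylpfa was dim in heterozygous eyes and ckma in both genotypes.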

How the data were processed

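RNA of 12 pools of whole zebrafish eyes was measured on Affymetrix arrays, 3 pools in each of 4 groups. The deposited table holds log2 intensities for 75212 probe sets, made by RMA in Affymetrix Expression Console per the submitters' processing notes, without software versions; the labels' labelling protocol names an array of other species, while the probe annotation is of a zebrafish platform. RMA scales arrays to a common distribution, and array medians were 5.64 to 5.70. No value was normalized again. Of the probe sets, 20806 name 1 gene symbol, 855 several and 53551 none; symbols were updated to RefSeq names for 20323. The brightest probe set by mean over all arrays stood for each of 19260 genes. Of these, 14002 were tested: in at least 3 arrays they exceeded the 33rd percentile of that array's probe sets with 1 symbol.

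One limma 3.58.1 fit (R 4.3.3; group means, trended empirical Bayes, 8 residual degrees of freedom) gave every contrast, with Benjamini-Hochberg adjustment over all 14002 genes. A group was called dim where its mean lay below that percentile, and errors after ± are standard errors. Data were also simulated with the gene means and spread of these arrays, a change in few genes and independent noise. There the interaction was recovered for 56% of genes changed by 0.5 and 92% of those changed by 1 on the log2 scale. Of the simulated calls 2.63% were false. In the real data 47.2% of genes were called and pools may share effects, so these rates need not hold for the calls given here. The main fit did not pair the pools by replicate number. Residual correlations of same-numbered pools were -0.068, 0.055 and 0.122 at 7 dpf and 0.139, 0.088 and 0.096 at 28 dpf. Those of pools with different numbers were -0.14 to 0.096 at 7 dpf and -0.093 to -0.006 at 28 dpf. A pairing at 28 dpf is therefore possible.

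The genes described and the 44 gene lists (1082 of 1227 entries matched) were chosen with earlier results of these data known. Genes named for a class were the largest interactions among those whose genotypes did not overlap at each age with a call. This held for 368 of 386 reversals to higher and 72 of 79 to lower. Names of clones and names starting with LOC were passed over in the classes. From each list the members with the largest called interactions were named. The array scan order, batches and collection times are not given in the sources used here, and RMA gives no depth, so the 3 pools per group limit the precision. Alternatives covered probe set choice, filters, scaling, the variance model, array weights, replicate blocks, the threshold and leaving out each pool.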

Additional observations from a re-analysis of the deposited data

Results flagged for a closer look

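The genotype difference changed between ages in 2530 genes upward and 4080 downward by the test of the interaction itself. Of these, 386 were called lower in mutant eyes at 7 dpf and higher at 28 dpf, and 79 the other way.

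Among the reversals to higher the interactions were 2.80 for ankrd33ab, 2.28 for pdk2a, 1.84 for pdk2b, 1.80 for rdh20, 1.77 for serp2, 1.66 for itm2cb, 1.65 for cnnm1, 1.60 for fam210b, 1.59 for bhlhe41 and 1.58 for gsg1l. These 10 were named only among genes whose mutant pools all lay below the heterozygous pools at 7 dpf and above them at 28 dpf. Their separation is therefore part of the rule and no further result.

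Among the reversals to lower they were -2.0 for opn1lw1, -1.84 for kcnj20, -1.82 for them4, -1.56 for insig1, -1.49 for hip1rb, -1.47 for arhgef10lb, -1.44 for lrrc61, -1.38 for fyco1b, -1.34 for coch and -1.25 for pign. The same rule, with the sides exchanged, named these 10 genes.

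Signal of the same kind was present in probe sets that carry no gene name. Of 18815 such probe sets bright enough to be tested, 5262 (28%) were called in the interaction, 722 of them at least 2-fold, and 271 reversed. In the same fit over all probe sets, 40.9% of the 14621 with 1 symbol and 29.6% of the 521 with several were called. The share was therefore lower without a gene name than with 1 symbol. Probe sets without a symbol are not named in the probe table used here.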

How the results depend on the processing

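Subtracting each array's median over the named probe sets (centring) moved the interaction counts most, to 4561 upward and 2493 downward, with 3465 genes opening to higher, 2170 to lower, 201 widening and 29 oxidative phosphorylation genes called. Quantile normalization gave 129 reversals to lower. With array weights there were 225 reversals to lower, 213 closings from higher, 282 widening genes and 2884 genes called at 7 dpf. With all probe sets tested separately 38 genes reversed to lower, 62 widened and 35 narrowed. At an adjusted p threshold of 0.01, 206 reversed to higher, 21 to lower, 65 closed from higher, 38 widened and 18 narrowed. The class of a gene depends on the scaling: of the 286 genes that closed from lower 70 kept that class after centring, while 345 of the 386 reversals to higher kept theirs. The causes of these movements were not tested.

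Leaving out 1 pool at a time gave 2285 to 2467 upward and 3604 to 4296 downward calls. Reversals to higher numbered 290 to 408 and to lower 41 to 93, openings to higher 1419 to 1644 and to lower 3224 to 3908, and closings from higher 80 to 128 and from lower 225 to 317. Widening genes numbered 58 to 139 and narrowing genes 39 to 56. Reversals to lower were 43, 41, 46 and 49 without heterozygous replicate 1, 2 or 3 or mutant replicate 2 at 7 dpf, and widening genes 58, 67, 87, 79 and 71 without heterozygous replicate 1, 2 or 3 or mutant replicate 2 or 3 at 7 dpf. The genes called at 7 dpf numbered 1216 to 1845, those at 28 dpf 7752 to 8706, and those changed with age 5039 to 6212 in heterozygous and 8215 to 8970 in mutant eyes. List members called numbered 441 to 494, with 30 to 33 of the clock list, 14 to 15 of sterol synthesis, 10 to 12 of fatty acid synthesis, 40 to 51 of oxidative phosphorylation, 28 to 33 of the matrix and 15 to 18 of DNA methylation and polycomb.

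The main fit did not use the replicate numbers as pairs. With the replicate number as a block (3 blocks) 2506 genes were called upward and 4088 downward, and 410 and 69 reversed to higher and lower; with a replicate block within each age (6 blocks) these were 2595, 4201, 444 and 86. At 28 dpf each array correlated best with the array of its own number, but not at 7 dpf. A separate spread at each age, chosen after seeing the data, gave 2653 upward and 4246 downward calls.

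Of the 240 named genes, 10 lost their call after centring and 5 after quantile normalization, and none changed sign under any setting run. The filters, variance models and replicate blocks leave the interaction itself unchanged, so no sign could change there. No setting used a dimmer probe set alone. The dimmer probe sets of insig1 (0.11), coch (0.07), acta1b (0.16), mthfd1l (0.25), igf2bp1 (-0.12), cyp2y3 (-0.14) and prom2 (-0.41) had the opposite sign. Those of the other named genes had the same sign. The limits are 3 pools per group, an unknown number of fish per pool, and dim groups, whose sizes of change are inexact.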
